A study of Mus musculus with 6 samples.

Results

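Clathrin coats, the AP-2 adaptor, dynamins, caveolins and the endosomal sorting complexes were followed in bone marrow-derived macrophages, as 43 genes out of 31883 in the deposited table. The genes were chosen by name as endocytosis and endosomal sorting machinery, without Rab GTPases and without receptors, and each of the 43 was found under 1 gene ID. RNA came from 3 libraries labelled as C57Bl/6 global CD22 knockout and 3 labelled as C57Bl/6 wild type. In both groups the culture medium held L929-conditioned medium (25%), a source of macrophage growth factor, and IL-4 at 20 ng/mL was given for 48 hours, which drives macrophages towards an M2-like state. Sex and age are not stated in the labels, and separate mice are not stated either, so each p-value describes variation among these 6 libraries, which may be technical.

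In clathrin-mediated endocytosis, the 4-subunit AP-2 adaptor gathers receptors at the plasma membrane and recruits clathrin, whose heavy and light chains assemble into a cage around the budding pit. BAR-domain proteins shape the neck of the pit, dynamin cuts it, and the coat is then shed. Cargo that reaches early endosomes is returned by retromer and the recycling proteins or is handed by ESCRT-0 to the pathway that ends in the lysosome. Macrophages use these routes to take up scavenger, lectin and Fc receptor cargo, and the study's title raises endocytic deficits as one of its themes. Whether the RNA of the coat and sorting machinery differs with the knockout label is the question addressed here.

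The values are FPKM, fragment counts scaled to transcript length and to the size of the library, so genes can be ranked by them, while read depth is unknown. The 8 macrophage markers checked, among them Adgre1, Csf1r and Cd68, were at 8.57 FPKM or more in each library, and all 5 IL-4 response markers were at 13.9 FPKM or more. Wild type library 1 stood apart in adipocyte and skeletal muscle markers, and wild type library 2 in epididymis markers. The 6 adipocyte markers summed to 44.6 FPKM in wild type library 1, against 13.0 and 16.8 in the other wild type libraries and 3.46 to 12.2 in the knockout-labelled ones. Each wild type sum of adipocyte markers thus lay above all knockout-labelled ones. In wild type library 1 the 6 skeletal muscle markers summed to 4.70 FPKM, against 0.237 at most elsewhere. In wild type library 2 the 4 epididymis markers found in the table summed to 5.36 FPKM, against 0.0968 at most elsewhere. Sums over 6 fibroblast markers were 0.982 to 3.64 FPKM in knockout-labelled libraries and 1.94 to 2.43 FPKM in wild type ones. For 6 endothelial markers the sums were 0.988 to 1.22 and 1.44 to 2.11 FPKM in that order, without overlap and highest in wild type library 3. Of the 6 neuron markers 3 were listed at 0 in all libraries, and Syn1 and Map2 made up nearly all of their sum of 8.67 to 9.57 FPKM in knockout-labelled and 8.84 to 12.7 FPKM in wild type libraries. No single marker of B cells or neutrophils reached 1 FPKM in any library. Cd22 itself was at 8.85, 8.21 and 9.53 FPKM in the knockout-labelled libraries, against 8.95, 9.36 and 10.6 FPKM in wild type (limma, adjusted p = 0.695), so its level does not show the knockout. Gene-level values can include transcript outside a deleted part, which was not tested. Directions below are therefore for the libraries labelled CD22 knockout.

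The machinery was strongly expressed, and its levels spanned several orders of magnitude. Of the 43 genes, 3 had a mean over the 6 libraries of at least 100 FPKM, 30 lay between 10 and 100 FPKM and 7 more were tested with a mean under 10 FPKM. The remaining 3 genes, Dnm1, Dnm3 and Amph, stayed below 1 FPKM in each library and were not tested. Clta ranked first with a mean over the 6 libraries of 182 FPKM, Ap2m1 followed with 177 FPKM and Cltc with 126 FPKM. Ehd4 (86.6 FPKM), Dab2 (78.6 FPKM) and Arf6 (70.7 FPKM) came next. Neighbours in this order did not all differ beyond their spread: Clta was at 185 ± 18.2 FPKM in knockout-labelled libraries and Ap2m1 at 175 ± 12.7 FPKM in the same libraries (SD, n = 3). A pseudogene, listed at 47.7% to 55.5% of Ap2m1, may also take reads from it, so the first rank is not settled.

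**Figure D1:**
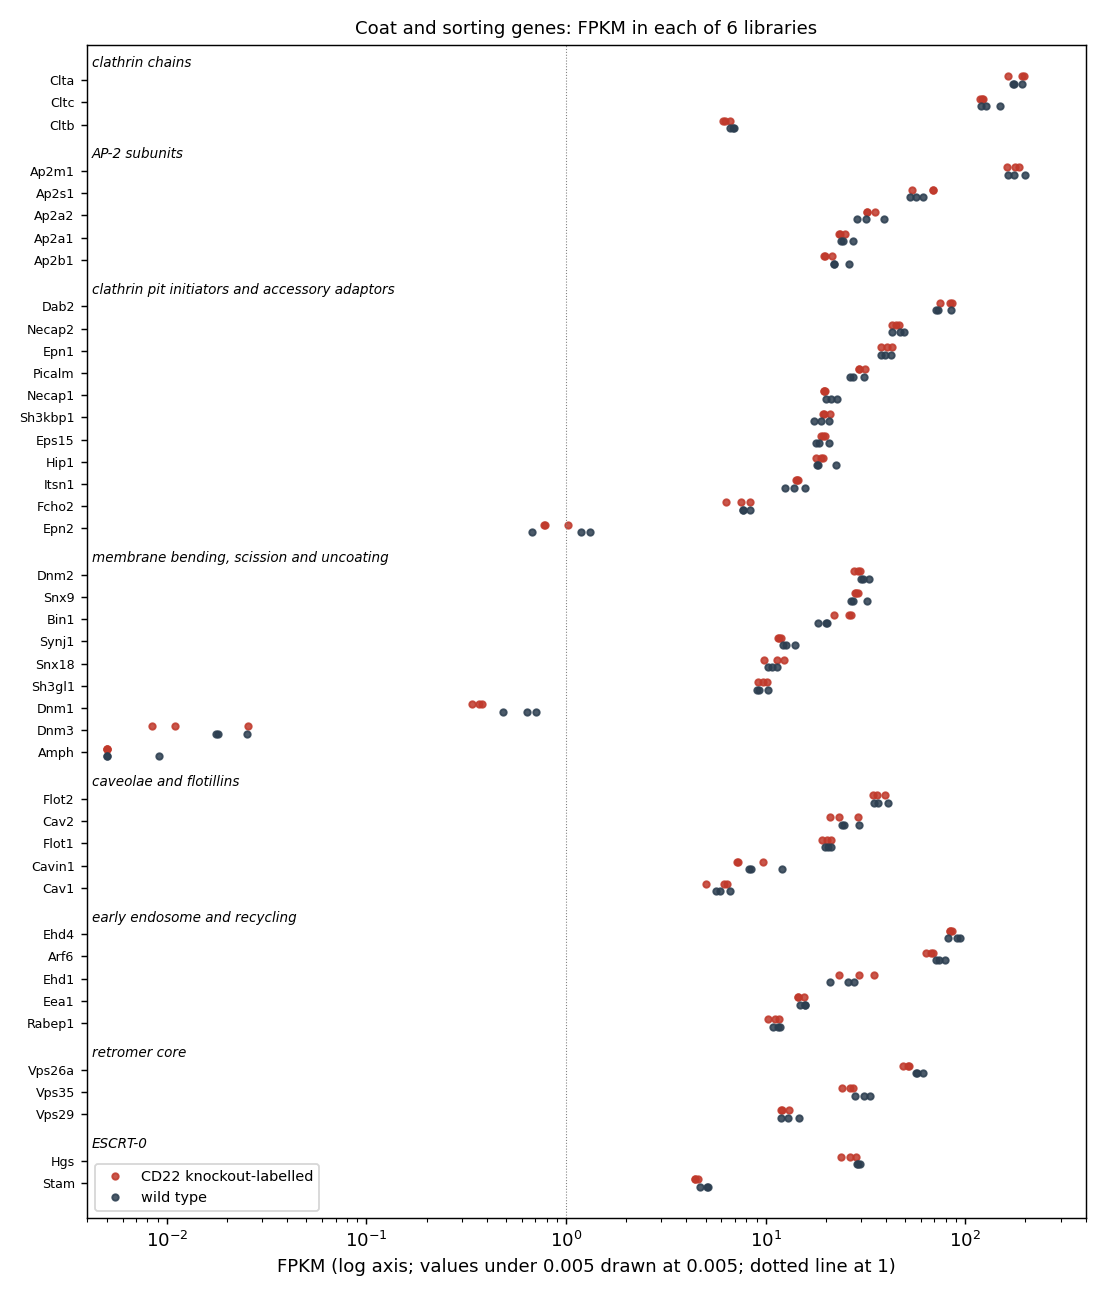
FPKM (log axis) of each of the 43 coat and sorting genes, grouped by role and ordered by level, with 3 CD22 knockout-labelled libraries (red) above 3 wild type libraries (dark). Clta, Ap2m1 and Cltc lie above 100 FPKM, Dnm1, Dnm3 and Amph lie below 1 FPKM, and for most genes the points of the groups interleave.

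Related genes were used very unequally. Of the 2 clathrin light chains, Clta took 96.7% ± 0.305 of their summed FPKM in knockout-labelled libraries and 96.4% ± 0.173 in wild type libraries (SD, n = 3 each). Among the dynamins, the GTPases that cut the neck of a pit, Dnm2 took 98.7% ± 0.0796 in knockout-labelled and 98.0% ± 0.260 in wild type libraries. Dnm1, best known as the dynamin of synapses, was at 0.362 ± 0.0223 FPKM in knockout-labelled and 0.610 ± 0.116 FPKM in wild type libraries, and Dnm3 did not exceed 0.0256 FPKM in any. Epn1 took 97.9% ± 0.243 and 97.4% ± 0.843 of the summed FPKM of the epsins Epn1 and Epn2 in knockout-labelled and wild type libraries. The large AP-2 subunits of the alpha type shared their sum more evenly, with Ap2a2 at 58.2% ± 0.434 in knockout-labelled and 56.7% ± 2.23 in wild type libraries. Necap2 took 69.6% ± 0.893 in knockout-labelled and 68.5% ± 1.34 in wild type libraries of its sum with Necap1. These shares describe RNA and carry no test.

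The dynamins differ widely in level although they are close relatives, and the 120 bases just before their RefSeq start sites (GRCm38.p6) are given for that reason, with CG dinucleotides in capitals. The windows are chr9:21424788-21424907 on the plus strand for Dnm2, chr2:32353330-32353449 on the minus strand for Dnm1 and chr1:162478035-162478154 on the minus strand for Dnm3.
Dnm2: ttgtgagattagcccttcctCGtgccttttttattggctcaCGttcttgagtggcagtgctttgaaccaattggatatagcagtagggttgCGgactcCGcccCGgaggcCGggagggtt
Dnm1: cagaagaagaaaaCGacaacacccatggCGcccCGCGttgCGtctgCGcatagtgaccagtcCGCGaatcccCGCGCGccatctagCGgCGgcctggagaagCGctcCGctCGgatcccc
Dnm3: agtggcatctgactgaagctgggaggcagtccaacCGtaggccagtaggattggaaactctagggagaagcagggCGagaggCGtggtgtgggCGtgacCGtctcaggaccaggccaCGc

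CG dinucleotides numbered 6 in the window of the abundant Dnm2, 16 in that of the weakly expressed Dnm1 and 6 in that of Dnm3, so their number did not follow the order of the levels. In the full windows of 300 bases (250 before and 50 after the start), the counts were 17 for Dnm2, 28 for Dnm1 and 12 for Dnm3. Over the 35 members with an entry in the RefSeq promoter table the median count was 25 (range 2 to 44), taking the window with the most where a gene has several. The median was 23 over 8006 genes tested with an entry and 8 over all 27025 genes in that table. CG content near the start is thus a feature that the members share with other expressed genes.

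None of the 40 members tested was called different between the genotype labels. On the scale of log2(FPKM + 1), limma was run over all 10777 genes that reached 1 FPKM in at least 3 libraries, and a gene is called when its Benjamini-Hochberg adjusted p is below 0.05. With limma, 0 members were called, against a background of 0.408% of all genes tested (44 of 10777). Members called higher numbered 0, against 0.148% of all genes tested, and members called lower 0, against 0.260%, and the smallest adjusted p among members was 0.208, for Bin1. At an unadjusted p under 0.05, 3 members passed (7.50%), against 11.0% of all genes tested. The median log2 fold change of the members was -0.05, with a range of -0.24 to 0.33, beside -0.02 for all genes tested. Their median size regardless of sign was 0.09, against 0.08 for all genes tested. Counts of 0 were found in all 15 alternative settings as well, among them leaving out each library in turn. At a background of 0.408%, any list of 40 genes is likely to hold 0 called genes.

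Judged by the spread among these libraries, which may be technical, most members had narrow intervals, each for its own gene alone. For 37 of the 40 members the 95% interval of the log2 fold change, from limma's moderated standard error, lay within 0.5 of 0 in both directions. The widest intervals belonged to Cavin1, from -0.58 to 0.14, and Ehd1, from -0.14 to 0.57. Over all tested members the interval bounds on the linear scale of FPKM + 1 reached from 0.668-fold to 1.48-fold. The median coefficient of variation of a member was 5.14% among knockout-labelled and 7.69% among wild type libraries, against 7.39% and 8.66% for all genes tested in that order.

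**Figure D2:**
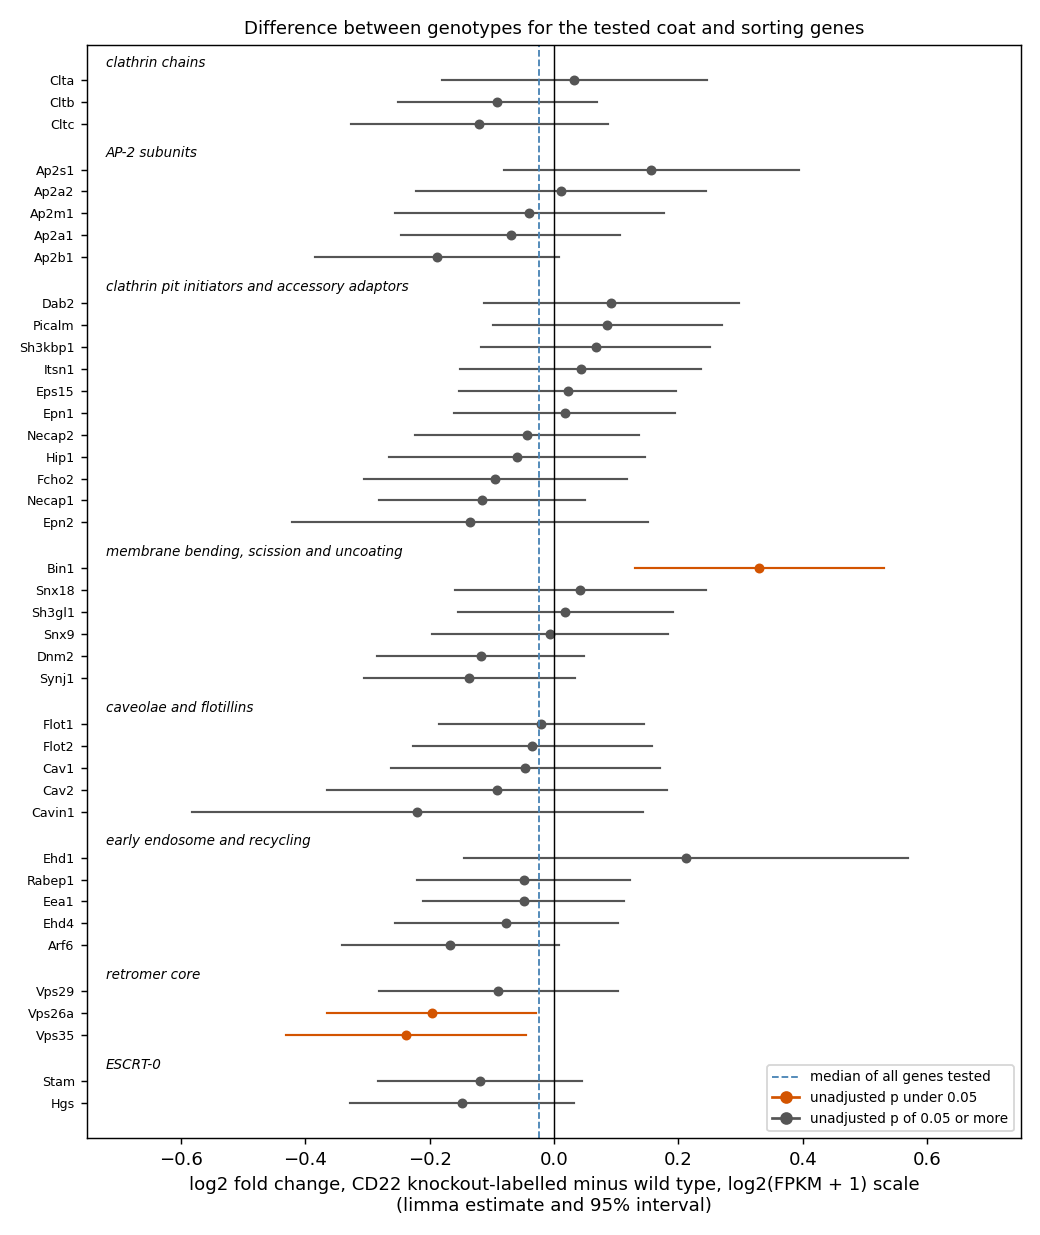
Log2 fold change of each tested member, CD22 knockout-labelled minus wild type, with its 95% interval from limma (bars), grouped by role. Orange marks the 3 members with an unadjusted p under 0.05 (Bin1 above 0, Vps35 and Vps26a below 0), and the dashed line is the median of all genes tested, -0.02.

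Of the 3 genes of the clathrin cage, 0 were called, and each overlapped between groups. Cltc, the heavy chain that forms the legs of the triskelion (chr11:86694351-86757565, minus strand, looked up by gene ID in GRCm38), was at 121, 122 and 119 FPKM in knockout-labelled libraries, against 149, 126 and 120 FPKM in wild type libraries. The groups overlapped, and wild type library 1 alone was high (log2 fold change -0.12, standard error 0.094, adjusted p = 0.687 by limma). Clta, light chain A, was at 192, 198 and 164 FPKM in knockout-labelled libraries, against 175, 192 and 173 FPKM in wild type libraries. Cltb, light chain B, averaged 6.32 ± 0.264 FPKM in knockout-labelled and 6.80 ± 0.160 FPKM in wild type libraries (SD, n = 3 each). The log2 fold changes of the light chains were 0.03 and -0.09, with adjusted p = 0.936 and adjusted p = 0.695 by limma.

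AP-2 is built from an alpha, a beta, a mu and a sigma subunit, and 0 of its 5 genes were called. Ap2b1, the beta subunit that binds clathrin, was at 21.6, 19.9 and 19.7 FPKM in knockout-labelled libraries, against 26.3, 22.05 and 21.9 FPKM in wild type libraries. Its groups did not overlap, by a gap of less than 1 FPKM, and the log2 fold change was -0.19 with an interval from -0.38 to 0.01 (limma, adjusted p = 0.468). Ap2s1, the small sigma subunit, was at 68.8, 69.2 and 54.1 FPKM in knockout-labelled libraries, against 56.9, 61.6 and 52.8 FPKM in wild type libraries. Knockout-labelled libraries 1 and 2 were the highest for Ap2s1 while library 3 lay within the wild type range (log2 fold change 0.16, limma, adjusted p = 0.640). The alpha subunit genes Ap2a1 and Ap2a2 had log2 fold changes of -0.07 and 0.01. The mu subunit gene Ap2m1, whose product reads tyrosine-based sorting signals, averaged 175 ± 12.7 FPKM in knockout-labelled and 180 ± 17.6 FPKM in wild type libraries (SD, n = 3 each). A pseudogene, Ap2m1-ps, was listed at 97.6, 76.8 and 90.5 FPKM in knockout-labelled libraries and 109, 97.9 and 84.5 FPKM in wild type libraries, which is 47.7% to 55.5% of Ap2m1, so near-identical copies may split reads and the Ap2m1 level is uncertain.

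Among the 11 initiators and accessory adaptors, 6 had a higher and 5 a lower mean on the log2 scale in knockout-labelled libraries, and 0 were called. Dab2, an adaptor for receptors of the LDL receptor family, was the most abundant of them at 83.5, 85.5 and 74.5 FPKM in knockout-labelled libraries, against 84.3, 71.4 and 72.7 FPKM in wild type libraries. Its groups overlapped (log2 fold change 0.09, limma, adjusted p = 0.767). Picalm, an adaptor that binds clathrin and SNARE proteins, averaged 30.1 ± 1.28 FPKM in knockout-labelled and 28.3 ± 2.51 FPKM in wild type libraries. Fcho2, an F-BAR protein that marks where pits start, averaged 7.39 ± 1.01 and 7.91 ± 0.393 FPKM in the same order. Log2 fold changes of the scaffolds Eps15 and Itsn1 were 0.02 and 0.04, and those of Epn1, Hip1, which links pits to actin, and Sh3kbp1, an adaptor of receptor downregulation, were 0.02, -0.06 and 0.07. Necap1, an AP-2 partner, was at 19.5, 19.6 and 19.8 FPKM in knockout-labelled libraries, against 21.3, 22.8 and 20.1 FPKM in wild type libraries. It did not overlap between groups, by a gap of less than 1 FPKM, and its log2 fold change was -0.12 (limma, adjusted p = 0.613). Its paralog Necap2 had a log2 fold change of -0.04. Epn2 passed the filter on 3 libraries alone, with 1.03, 0.774 and 0.781 FPKM in knockout-labelled and 1.19, 1.31 and 0.674 FPKM in wild type libraries.

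Bin1 had the highest log2 fold change of the tested members. It encodes amphiphysin 2, a BAR-domain protein that bends membranes and binds dynamin, and was at 26.1, 26.8 and 21.96 FPKM in knockout-labelled libraries, against 20.1, 20.3 and 18.4 FPKM in wild type libraries. The groups did not overlap, and the means of 25.0 ± 2.62 and 19.6 ± 1.07 FPKM (SD, n = 3 each) give a ratio of 1.27. Its log2 fold change came to 0.33 (SE 0.091), with an interval from 0.13 to 0.53, and it was not called (limma, unadjusted p = 0.00406, adjusted p = 0.208). In the authors' deposited table the fold of Bin1 is 1.27 with a q of 0.00871, so that source puts it past a q of 0.05 without marking it as significant, and the cause of the difference between the sources was not tested. Bin1 was the 1 member of 43 with such a q in the authors' deposited table, where 0.693% of the whole table and 1.51% of the genes tested here had one. In these libraries its unadjusted p was under 0.05 in 15 of 15 alternatives, with adjusted p values from 0.0596 to 0.662. The lowest adjusted p came without CD22_KO replicate 3, the knockout-labelled library with the lowest Bin1.

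Of the other genes of neck shaping, cutting and uncoating, 5 were tested and 0 were called. Dnm2 was at 29.8, 27.6 and 28.9 FPKM in knockout-labelled libraries, against 33.1, 30.0 and 30.9 FPKM in wild type libraries. The groups were separated by less than 1 FPKM (log2 fold change -0.12, limma, adjusted p = 0.605). Synj1, a phosphatase whose action on phosphoinositides helps to shed the coat, was at 12.0, 11.6 and 11.6 FPKM in knockout-labelled libraries, against 14.1, 12.7 and 12.3 FPKM in wild type libraries. It too showed no overlap (log2 fold change -0.14, limma, adjusted p = 0.552). The endophilin gene Sh3gl1 and the sorting nexins Snx9 and Snx18, which shape and recruit dynamin to necks, had log2 fold changes of 0.02, -0.01 and 0.04. Dnm1, which was not tested, was at 0.368, 0.338 and 0.381 FPKM in knockout-labelled libraries, against 0.711, 0.483 and 0.635 FPKM in wild type libraries and did not overlap between groups at this low level. With no filter on low values its log2 fold change was -0.24 (limma, unadjusted p = 0.0220, adjusted p = 0.657). Dnm1 overlaps Ciz1 on the other strand, which averaged 6.40 FPKM over the 6 libraries, so its low level is uncertain, as is that of Sh3gl1 beside Mpnd (16.7 FPKM). Amph, the amphiphysin of neurons, was listed at 0 in 5 libraries and at 0.00909 FPKM in wild type library 2.

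**Figure D3:**
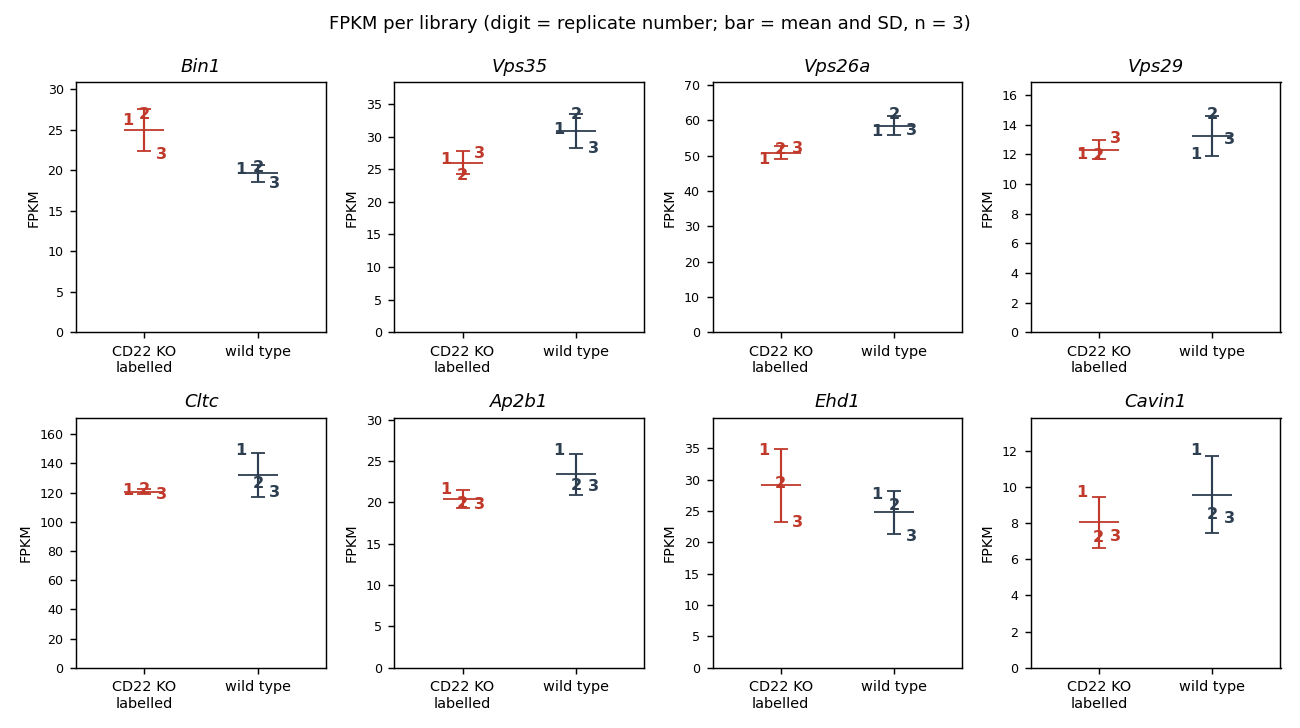
FPKM of 8 members in each library, from 0 on a linear axis, with CD22 knockout-labelled libraries on the left and wild type libraries on the right. Digits give the replicate number, and horizontal bars with whiskers give the mean and SD (n = 3). Bin1, Vps35, Vps26a and Ap2b1 do not overlap between the groups, and wild type library 1 is the highest for Cltc, Ap2b1 and Cavin1.

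Caveolin and flotillin genes, which serve clathrin-independent entry and membrane domains, had lower means in the knockout-labelled libraries on the log2 scale in 5 of 5 cases, beside 57.9% of all genes tested, and none was called (limma, 0 at an unadjusted p under 0.05). Cav1, the principal caveolar coat protein, averaged 5.87 ± 0.756 FPKM in knockout-labelled and 6.08 ± 0.522 FPKM in wild type libraries (SD, n = 3 each). Its partner Cav2 was the more abundant RNA in each library and averaged 24.5 ± 4.13 and 26.0 ± 2.98 FPKM in that order. Cavin1, which stabilises caveolae, was at 9.66, 7.17 and 7.26 FPKM in knockout-labelled libraries, against 12.0, 8.45 and 8.24 FPKM in wild type libraries. The high value in wild type library 1 coincided with the highest adipocyte marker sum, and the high value in knockout-labelled library 1 with the highest fibroblast marker sum, 3.64 FPKM, while their part in the Cavin1 values was not tested. Its log2 fold change was -0.22 over all libraries and -0.06 without WT replicate 1 (limma, adjusted p = 0.664 and adjusted p = 0.907). In bulk RNA, fewer cells of a type and less RNA per cell cannot be told apart. Flot1 and Flot2 had log2 fold changes of -0.02 and -0.03.

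At early endosomes, Eea1 and Rabep1, which tether vesicles for Rab5-driven fusion, had the same log2 fold change of -0.05, with means of 14.9 ± 0.641 and 15.4 ± 0.484 FPKM for Eea1 in knockout-labelled and wild type libraries. Arf6, a GTPase that controls recycling and actin at the plasma membrane, was at 68.8, 67.3 and 63.6 FPKM in knockout-labelled libraries, against 79.3, 71.4 and 73.9 FPKM in wild type libraries. The groups did not overlap (log2 fold change -0.17, interval -0.34 to 0.01, limma, adjusted p = 0.468). Ehd1, an ATPase of recycling tubules, was at 34.7, 29.4 and 23.2 FPKM in knockout-labelled libraries, against 27.6, 25.8 and 20.9 FPKM in wild type libraries. Its libraries spread widely in both groups and overlapped (log2 fold change 0.21 with a standard error of 0.155, adjusted p = 0.670 by limma). Without CD22_KO replicate 1 the log2 fold change of Ehd1 was 0.08, without WT replicate 3 it was 0.10, without CD22_KO replicate 3 it was 0.36, and without wild type libraries 1 and 2 it was 0.44. The related Ehd4 averaged 84.2 ± 1.12 FPKM in knockout-labelled and 88.9 ± 6.29 FPKM in wild type libraries.

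Retromer retrieves cargo from endosomes, and its gene Vps35 had the lowest log2 fold change of the tested members. Vps35, its scaffold subunit (chr8:85260392-85299802, minus strand, GRCm38), was at 26.5, 24.0 and 27.5 FPKM in knockout-labelled libraries, against 31.1, 33.3 and 28.2 FPKM in wild type libraries. The groups were separated by less than 1 FPKM at their closest, and the log2 fold change was -0.24 with an interval from -0.43 to -0.05 (limma, unadjusted p = 0.0200, adjusted p = 0.355). Vps26a, an arrestin-like subunit that contacts cargo adaptors (chr10:62455235-62486805, minus strand, GRCm38), was at 48.8, 51.6 and 52.1 FPKM in knockout-labelled libraries, against 56.7, 61.5 and 57.1 FPKM in wild type libraries. It showed no overlap either, with a log2 fold change of -0.20 and an interval from -0.36 to -0.03 (limma, unadjusted p = 0.0257, adjusted p = 0.379). Vps29, which binds the far end of Vps35, was at 12.0, 11.9 and 13.1 FPKM in knockout-labelled libraries, against 12.0, 14.7 and 13.0 FPKM in wild type libraries, and the groups overlapped. The ratio of Vps26a to Vps35 FPKM was 1.96 ± 0.165 in knockout-labelled and 1.90 ± 0.111 in wild type libraries (SD, n = 3 each), so the pair kept its proportion within the spread. Without wild type libraries 1 and 2 the log2 fold changes were -0.11 for Vps35 and -0.16 for Vps26a, with unadjusted p = 0.335 and unadjusted p = 0.145 by limma. Without WT replicate 2 alone, the unadjusted p by limma was 0.0710 for Vps35 and 0.0690 for Vps26a. Over the 15 alternatives, the unadjusted p was under 0.05 in 12 for Vps35 and in 11 for Vps26a. Vps35 overlaps Orc6 (6.25 FPKM over the 6 libraries) on the other strand, and whether counting used strand is not stated. Other members overlap expressed genes on the other strand too, among them Rabep1 with Nup88 (7.45 FPKM) and Dnm2 with Tmed1 (6.70 FPKM).

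ESCRT-0, which gathers ubiquitinated receptors for degradation, is formed by the products of Hgs and Stam. Hgs was at 28.4, 23.8 and 26.5 FPKM in knockout-labelled libraries, against 29.0, 29.5 and 28.7 FPKM in wild type libraries. Stam was at 4.60, 4.44 and 4.42 FPKM in knockout-labelled libraries, against 5.06, 5.15 and 4.69 FPKM in wild type libraries. Neither gene overlapped between groups, the gaps were small, and neither was called (log2 fold changes -0.15 and -0.12, limma, adjusted p = 0.542 and adjusted p = 0.593).

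More members lay lower than higher in the knockout-labelled libraries, and this lean was not seen without wild type library 1. In the log2 values 27 of the 40 tested members (67.5%) had a lower and 13 a higher mean, beside 57.9% lower of all genes tested. Groups did not overlap in 9 members that lay lower, against a background of 10.7% of all genes tested in that direction, and in 1 member that lay higher, against 6.43%. In both directions together these 10 members are 25.0% of those tested, beside 17.1% of all genes tested. Wild type library 1 held the highest value of 19 of the 40 members (47.5%), and of 30.2% of all genes tested. The median deviation of the members from their own 6-library mean was 0.11 in wild type library 1, against -0.06 to 0.00 in the other 5 libraries. Over all genes tested that median was 0.04 in wild type library 1, against -0.02 to 0.01 in the other 5. Without WT replicate 1 the members split into 20 lower and 20 higher with a median log2 fold change of -0.0047, and without wild type libraries 1 and 2 into 18 lower and 22 higher with a median of 0.02. Without WT replicate 2 the split was 30 lower and 10 higher (median -0.06), and without WT replicate 3 it was 31 lower and 9 higher (median -0.09). The median over all genes tested moved too, to -0.01 without WT replicate 1 and 0.01 without wild type libraries 1 and 2. It was -0.02 without WT replicate 2 and -0.04 without WT replicate 3. Median centring gave 26 lower and 14 higher (median -0.03), and quantile normalization 25 lower and 15 higher (median -0.02). Wild type library 1 also differed from the rest with transcript length: across 10771 genes tested, Spearman's rho between the deviation in that library and the longest annotated transcript was 0.39, against -0.27 to 0.13 in the other 5. That value is a description across genes, which are not independent replicates, and the median longest transcript was 3470 bases for the members and 3120 for all genes tested. Between the log2 fold change and the longest transcript, rho was -0.06 over the 40 members and -0.15 over the 10771 genes. Mitochondrially encoded genes took 17.2%, 20.4% and 15.6% of the summed FPKM in knockout-labelled libraries, against 11.8%, 11.7% and 16.5% in wild type libraries. With FPKM rescaled to nuclear-encoded genes, 26 members lay lower and 14 higher (median -0.04). The part of transcript length, of adipocyte and muscle transcripts or of depth in the lean was not tested.

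**Figure D4:**
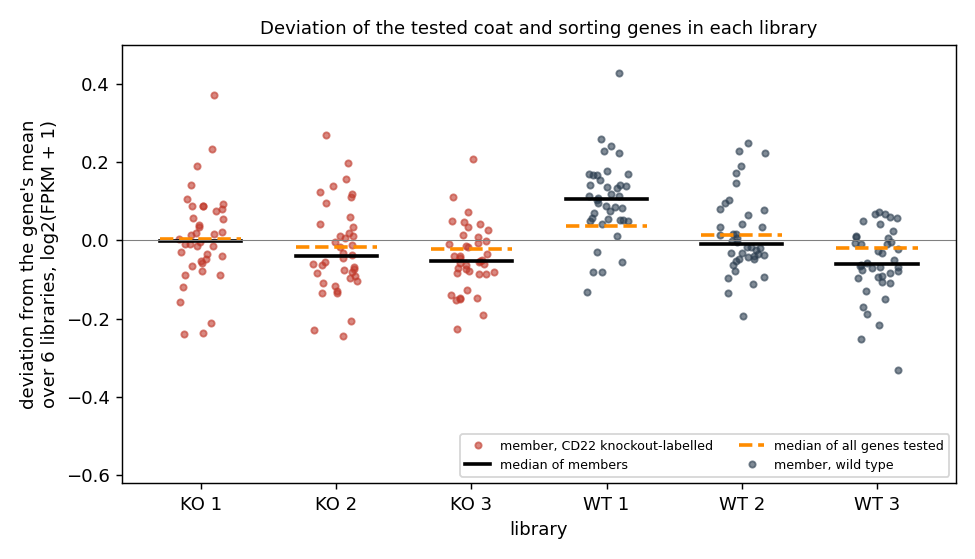
Deviation of each tested member from its own mean over the 6 libraries, on the log2(FPKM + 1) scale, for the CD22 knockout-labelled libraries (red, left) and the wild type libraries (dark, right). Black bars are the medians of the 40 members and dashed orange bars those of all genes tested; the black bar stands at 0.11 in wild type library 1 and between -0.06 and 0.00 elsewhere.

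Beyond the 43 genes, the wider machinery held 0 called genes too. Of 174 further genes in 5 lists, 152 were tested, and limma called 0 higher and 0 lower. Of all genes tested 0.408% were called, so few or no calls are likely in any list of this size. An unadjusted p under 0.05 was found for 16 genes (10.5%, against 11.0% of all genes tested). The median log2 fold change of the 152 genes was -0.06. In knockout-labelled libraries 116 of them (76.3%) had a lower and 36 a higher mean. That share lower stands beside 57.9% of all genes tested and 67.5% of the members, and by list it ran from 69.7% to 81.3%. Groups did not overlap in 24.3% (27 lower, 10 higher), beside 17.1% of all genes tested. The smallest adjusted p was that of Ap4b1, the beta subunit of the AP-4 adaptor of the trans-Golgi network. It was at 7.58, 7.83 and 7.02 FPKM in knockout-labelled libraries, against 5.65, 5.51 and 5.47 FPKM in wild type libraries (log2 fold change 0.37 with a standard error of 0.074, adjusted p = 0.0750 by limma). The groups were well separated, and in the authors' deposited table its q is 0.00530 without a mark as significant. Of the 174 genes, 2 had a q below 0.05 there and 0 were marked, beside 0.693% of the whole deposited table with such a q. In its list of adaptor genes 19 of 24 tested lay lower (79.2%) and 5 higher. Of the other genes with the smallest p there, Ap1s3 of AP-1 had a log2 fold change of -0.33, Ap5z1 of AP-5 0.20 and Ap4s1 of AP-4 -0.25.

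Among 49 further clathrin and membrane-bending genes, 33 were tested and 6 had an unadjusted p under 0.05 by limma (18.2%, beside 11.0% of all genes tested). Cttn, which links branched actin to dynamin, was at 2.88, 2.72 and 3.43 FPKM in knockout-labelled libraries, against 2.08, 2.49 and 1.78 FPKM in wild type libraries (log2 fold change 0.37, limma, adjusted p = 0.235). Arrb2, beta-arrestin 2, an adaptor for G protein-coupled receptors, was at 54.3, 50.8 and 45.7 FPKM in knockout-labelled libraries, against 42.8, 42.1 and 40.1 FPKM in wild type libraries. Its log2 fold change was 0.26 (limma, adjusted p = 0.282), and in the authors' deposited table its q is 0.0362, again without a mark as significant. Pik3c2a, a phosphoinositide kinase of late pits, and Numb, an endocytic adaptor, had log2 fold changes of -0.26 and -0.30 with no overlap between groups (limma, adjusted p = 0.252 and adjusted p = 0.254).

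Sorting nexins, Commander and WASH genes, which work beside retromer, had 10 higher and 23 lower means among 33 tested (69.7% lower, beside 57.9% of all genes tested). Snx1, a sorting nexin of endosomal tubules, was at 51.5, 47.6 and 48.4 FPKM in knockout-labelled libraries, against 56.1, 63.0 and 56.0 FPKM in wild type libraries. The groups did not overlap (log2 fold change -0.24, limma, adjusted p = 0.3003), and Snx27, a retromer adaptor, was at -0.22 on the same scale (adjusted p = 0.411). Commd4, a Commander subunit, had a log2 fold change of 0.18, and Washc4, of the WASH complex, one of -0.17. Of the ESCRT genes beyond ESCRT-0, 32 were tested, and Tollip, a ubiquitin-binding sorting adaptor, was at 22.2, 20.99 and 23.0 FPKM in knockout-labelled libraries, against 27.3, 25.9 and 27.1 FPKM in wild type libraries. It showed a clear gap between groups and was not called (log2 fold change -0.27, limma, adjusted p = 0.206). Stam2, the paralog of Stam, Vps37c of ESCRT-I and Ptpn23, an ESCRT partner, had log2 fold changes of -0.17, -0.18 and -0.16 (limma, adjusted p of 0.414, 0.429 and 0.476). Endosome tethers and phosphoinositide kinases had 0 of 30 tested genes at an unadjusted p under 0.05, with log2 fold changes of -0.19 for Rab11fip1, -0.17 for Rbsn, -0.15 for Pik3c3 and -0.18 for Fig4 (limma, adjusted p of 0.469 to 0.535).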

How the data were processed

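The FPKM values per gene and library were made and deposited by the authors, per the file headers. Per the submitters' processing notes, cutadapt, FastQC, HISAT2, StringTie, DESeq2 and edgeR were used, with no versions or roles, and neither genome build nor annotation is stated there. The same deposited table gives the authors' fold (a ratio, knockout-labelled over wild type), its log2, and a p-value and q-value from the authors' own comparison. Per the labels, poly(A) libraries were strand-specific and read as pairs, and whether counting used strand is not stated. Each library has its own batch code, so batch could not be fitted. FPKM gives no total counts. The most common ratio of low values to those of wild type library 1, shared by 77 to 91 genes per library, put relative depth at 1.105 to 1.112 in knockout-labelled libraries and at 1.018 and 0.971 in wild type libraries 2 and 3.

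FPKM of at least 1 in at least 3 of 6 libraries was required, which left 10777 genes, and log2(FPKM + 1) was tested with limma 3.58.1 in R 4.3.3 (trend, robust moderation, no covariates, 2-sided, Benjamini-Hochberg over all genes tested). Fold changes on this scale understate those of low genes. Members, lists and alternatives were chosen with earlier results of these data known. All 43 members are named, and of each further list the 4 genes with the smallest p. In the mouse GENCODE release 21 annotation (GRCm38), positions and transcript lengths were looked up by gene ID. Data over the 10777 genes were simulated with independent normal noise of limma's own variance, and 600 genes were changed at each size. Of these, 84.3% were recovered for a log2 change of 0.5, 96.2% for 1 and 0.833% for 0.25. Changes of that smallest size are thus mostly not called. Effects shared across a library were not simulated, so recovery in the real libraries may be lower. Alternatives were another pseudocount (0.1), no filter, a minimum of 5 FPKM, 3 scalings, no robust moderation, a replicate block and each library left out; leaving out wild type libraries 1 and 2 together was chosen after seeing the data.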

Additional observations from a re-analysis of the deposited data

How the results depend on the processing

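The count of 0 called members and that of 0 called genes among the further lists held in all 15 alternatives. With 0.408% of all genes called, lists of this size would hold few or no calls, so these counts say little on stability. Called genes over the whole table numbered 44, and 3 with no filter on low values, 63 with a replicate block, 11 without wild type libraries 1 and 2 (chosen after seeing the data), and 28 to 92 when 1 library was left out, lowest without CD22_KO replicate 2 and highest without CD22_KO replicate 3. The members' median log2 fold change of -0.049 ranged from -0.091 (without WT replicate 3) to -0.0047 (without WT replicate 1) with 1 library left out, and was 0.021 without wild type libraries 1 and 2. Signs changed in 39 of 598 member comparisons, over 19 members, and 3 of these changes involved an estimate larger than its standard error. Snx9 came to 0.075 without WT replicate 1 and to -0.057 without WT replicate 2, against -0.0070 over all libraries, and without wild type libraries 1 and 2 Cltc came to 0.0068 and Epn2 to 0.15. The causes were not tested. Deviations of same-numbered libraries of the groups had correlations of 0.056, -0.034 and 0.070, and those of unlike-numbered ones ranged from -0.094 to 0.025. Values this small cannot decide whether the replicate numbers mark pairs, and the labels state no pairing. With the replicate block, 6 members instead of 3 had an unadjusted p under 0.05, and 0 were called. The unknown read depth means that no counting error could be given, which limits Dnm1, Dnm3, Amph and Epn2 most.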
